A study of Mus musculus with 38 samples.

Results

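RNA from sorted neuronal nuclei of the adult mouse brain was compared with RNA from whole cortex. The comparison used 13 of the 38 samples of the series, namely all 10 libraries of sorted nuclei from mice that carry a Cas9-GFP transgene and the 3 bulk libraries of cortex labelled as Emx1-Cre control animals (numbers 64, 65 and 77). The libraries were taken by their labels. Each cortex library carries the number of 1 animal, and the labels give no number of animals behind a nuclei library. The series as a whole asked what loss of Trim28, the corepressor that KRAB zinc finger proteins recruit to transposable elements (TEs), does in the mouse brain, and the nuclei and cortex libraries were made for separate parts of that question.

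Of the nuclei libraries, 5 came from Cas9-GFP mice, in which every cell makes Cas9, and 5 from Stop-Cas9-GFP mice, in which Cas9 needs Cre. Adult animals received adeno-associated virus (AAV) into the striatum, and nuclei were sorted 2 months later by a red fluorescent histone, H2B-RFP, driven by the neuronal Synapsin promoter (Cas9-GFP) or switched on by Synapsin-driven Cre (Stop-Cas9-GFP). In each line 1 library carried the control guide lacZ, 3 carried 1 guide to Trim28 exon 3, 4 or 13 (g3, g4 and g13) and 1 carried these 3 guides together, so that 8 of the 10 nuclei libraries came from animals given a Trim28 guide. The cortex animals were 3 months old and came from sires that also carried 1 gtRosa allele. By the study's methods they had 1 Emx1-Cre allele and 1 floxed Trim28 allele. They would so have had 1 Trim28 copy excised in the Emx1 lineage, which gives rise to cortical excitatory neurons and glia. A figure legend of the study instead calls the control littermates Cre-negative. On Y-linked genes, 5 nuclei libraries had 5944 to 8428 counts and the other 5 at most 1, whereas the 3 cortex libraries had 0. By these counts the mix of sexes differed between the groups. Whole tissue against sorted nuclei, cortex against striatum, the transgenes, the virus, this mix and the library set all changed together, and their parts in any difference below cannot be told apart.

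A neuron's nucleus holds pre-mRNA with its introns, transcripts that wait there with unspliced "detained" introns, and long non-coding RNAs that act on chromatin or in nuclear bodies. Ribosomes, mitochondria, dendrites, axons and their mRNAs lie outside it, as does the RNA of other cells. Much of the mouse genome's TE sequence, above all the short SINEs, sits within introns, so that reads from unspliced RNA also carry TE sequence.

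All 13 libraries were poly-A selected. Counts assigned to genes ranged from 8790346 to 13067559 in the nuclei and from 17206220 to 25345083 in the cortex. Mitochondrially encoded transcripts took 1.25 to 4.39% of the nuclear counts and 12.5 to 15.3% of the cortex counts. Among the nuclei the library Cas9-GFP lacZ had the highest mitochondrial share. All levels of genes below are in CPM, the usual count scaled to the total of its library. Unless stated otherwise, these levels were adjusted by the trimmed mean of M values (TMM). They are not divided by gene length, so levels are compared between libraries, not between genes. A gene was called higher or lower at a Benjamini-Hochberg adjusted p under 0.05 in edgeR's quasi-likelihood test with an absolute log2 fold change (nuclei over cortex) above 0.5.

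Most measured genes passed this test (73.6%). Of 18530 genes, 6751 (36.4%) were higher and 6881 (37.1%) lower in the nuclei, with a median log2 fold change of 0.02 over all genes. With library size as the only scaling the split moved to 8466 higher and 5178 lower, and the median to 0.54. The groups did not overlap, with all 10 nuclei libraries above all 3 cortex libraries, in 30.6% of genes, and lay below them in 36.7%. Every count of a gene list below is to be read against these shares.

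Trim28 itself stood at 82.0 to 131 CPM in the nuclei (median 95.4) and at 29.9, 26.4 and 30.4 CPM in the cortex. Each nuclei library lay above each cortex library, with a log2 fold change of 1.77 (SE 0.14, edgeR adjusted p 1.0e-09). The highest of the nuclei libraries was Cas9-GFP lacZ. An RNA count of this kind does not tell an edited transcript from an intact one. By the study's methods the control cortex lacked 1 allele in part of its cells.

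The nuclear-retained class held 3 lists. Of 18 tested long non-coding RNAs with known nuclear roles, 8 were higher and 3 lower (median log2 fold change 0.58), and their summed level without Xist was 20336 to 25656 CPM in the nuclei against 2538, 2508 and 3105 CPM in the cortex, a ratio of means of 8.49. Most of the nuclear sum (median 23836 CPM) came from Snhg11 and Meg3, with medians of 14190 and 4830 CPM. Meg3, the imprinted RNA of the Dlk1-Dio3 locus (chromosome 12, 109541001 to 109571726, GRCm38), was at 3989 to 6250 CPM in the nuclei (median 4830) and at 65.2, 53.1 and 67.5 CPM in the cortex, a log2 fold change of 6.30 (SE 0.19, edgeR adjusted p 8.4e-16). Mirg, a microRNA host transcript downstream of it (chromosome 12, 109729764 to 109749460), was at 141 to 220 CPM (median 179) against 9.47, 8.25 and 9.90 CPM, a log2 fold change of 4.27. Neither RNA had overlapping groups. Rian, another RNA of this locus, was not tested in the unique counts. In the counts that also use multiply mapped reads it stood at 546 to 1453 CPM against 238, 221 and 115 CPM, without TMM factors. The fit, which used these factors, gave a log2 fold change of 1.96 (SE 0.33, edgeR adjusted p 2.8e-05).

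Snhg11, a brain-enriched small nucleolar RNA host gene that GENCODE annotates as protein-coding (chromosome 2, 158375638 to 158386145), had 11824 to 16830 CPM in the nuclei (median 14190) and 696, 644 and 906 CPM in the cortex. The 2 ranges were far apart, and the log2 fold change was 4.21 (SE 0.18, edgeR adjusted p 4.6e-14). The nuclear-speckle RNA Malat1 rose less, from 472, 586 and 896 CPM in the cortex to 1629 to 4060 CPM in the nuclei (median 2383, log2 fold change 1.92), again without overlap. Firre, which anchors chromosomal loci, rose by 3.96 and Kcnq1ot1, an imprinted antisense RNA that silences its cluster, by 3.36 on the log2 scale. These last 3, and the other genes named below outside the rule on named genes, were chosen after their values were seen.

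Other RNAs of the list moved the opposite way. Neat1, the scaffold of paraspeckles, was lower in the nuclei (log2 fold change −0.73) with 25.3 to 81.1 CPM (median 45.9) against 87.3, 79.7 and 82.3 CPM. Its highest nuclei library overlapped the cortex. Peg13 (−1.80) and Pantr1 (−3.61) were lower without overlap. Xist, the RNA that coats the inactive X chromosome, was not called (edgeR adjusted p 0.27) but split the nuclei libraries. It ranged from 1.58 to 10442 CPM among them and was at 598, 700 and 998 CPM in the cortex. Without TMM factors, the 5 nuclei libraries with at most 1 Y-linked count had 6462 to 11310 CPM. The cortex libraries, with 0 Y-linked counts, had 453 to 742 CPM on that scale. The 5 nuclei libraries with 5944 to 8428 Y-linked counts had 1.76 to 6.17 CPM.

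**Figure D1:**
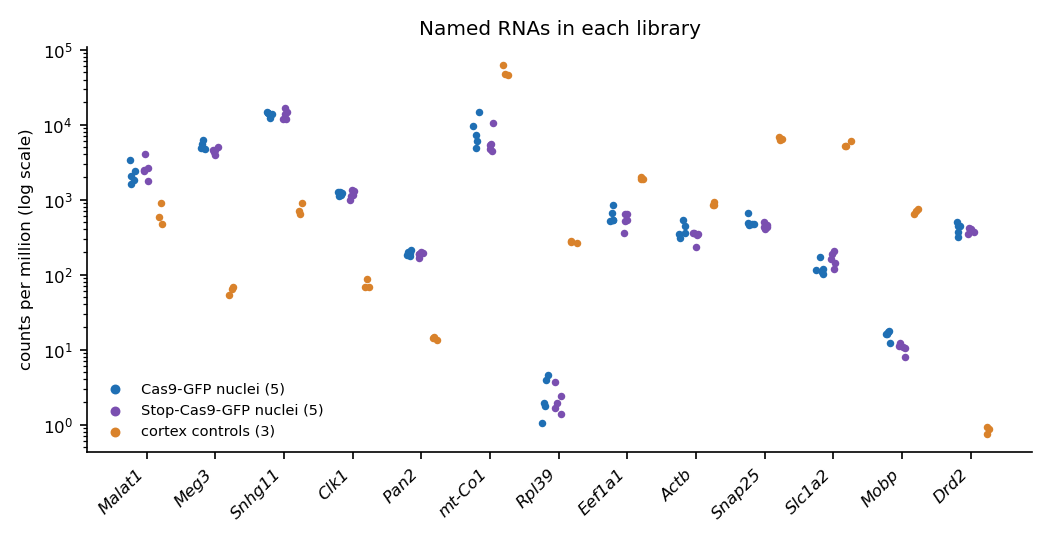
Level of single RNAs in each library, in TMM-scaled CPM on a log axis, for the 10 sorted nuclei libraries by line and the 3 cortex controls. Each point is 1 library. Meg3, Snhg11, Clk1 and Drd2 lie higher in all 10 nuclei libraries than in the cortex, and mt-Co1, Snap25, Slc1a2 and Mobp lower.

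The genes with detained introns moved together more than any other list of the nuclear class. Of 30 tested, mostly splicing factors and other RNA-processing genes, listed since their incompletely spliced poly-A transcripts are held in the nucleus, 27 were higher and none lower. The median log2 fold change was 2.26. Clk1, the kinase that phosphorylates SR splicing proteins (chromosome 1, 58410189 to 58424066), was at 1002 to 1329 CPM in the nuclei (median 1189) and at 67.6, 67.6 and 86.7 CPM in the cortex, a log2 fold change of 4.01 (SE 0.14, edgeR adjusted p 6.6e-15). Pan2, the catalytic subunit of a poly-A nuclease, was at 164 to 210 CPM (median 191) against 13.3, 14.5 and 14.2 CPM, and Srsf5, an SR splicing factor, at 1796 to 2572 CPM (median 2371) against 353, 361 and 325 CPM. In all 3 genes the lowest nuclei library was well above the highest cortex library.

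Ogt, which attaches O-GlcNAc to nuclear and cytoplasmic proteins, rose by 2.36 and the RNA helicase Ddx5 by 0.97 on the log2 scale, from 1298, 1247 and 1280 CPM to 2062 to 3101 CPM (median 2388). The other kinases of the family, Clk4 (3.53) and Clk2 (3.23), were called too. Among the 3 members that were not called were Zranb2 (0.34) and Srsf3 (0.05). Summed over the list, the nuclei held 21890 to 29277 CPM and the cortex 6428, 6351 and 6505 CPM, so that the 10 nuclei libraries varied far less among themselves than they differed from the cortex.

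Long neuronal genes were mostly lower in the nuclei. These genes span very long stretches of the genome, and were listed with the nuclear class since their long pre-mRNA takes time to transcribe. Of 25 tested, 6 were higher and 17 lower, with a median log2 fold change of −1.27 and a summed level in the nuclei of 3196 to 4495 CPM against 6951, 6897 and 7325 CPM. Pcdh9, a protocadherin, was at 33.8 to 62.0 CPM in the nuclei (median 50.3) and at 308, 305 and 269 CPM in the cortex (log2 fold change −2.58). Dlg2, a postsynaptic scaffold, was at 301 to 488 CPM (median 353) against 722, 712 and 764 CPM (−0.98). Both had nuclei libraries that lay below the cortex without overlap. The 6 that rose were Auts2 (2.74), Csmd3 (2.57), Csmd1 (2.24), Lrp1b (1.32), Nrg1 (0.80) and Nrxn3 (0.56). Ptprd was at 339 to 639 CPM against 520, 505 and 492 CPM, and its sign turned under both other scalings that shift the median. The gene counts cover exons only, so intronic reads of these genes did not enter them.

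**Figure D2:**
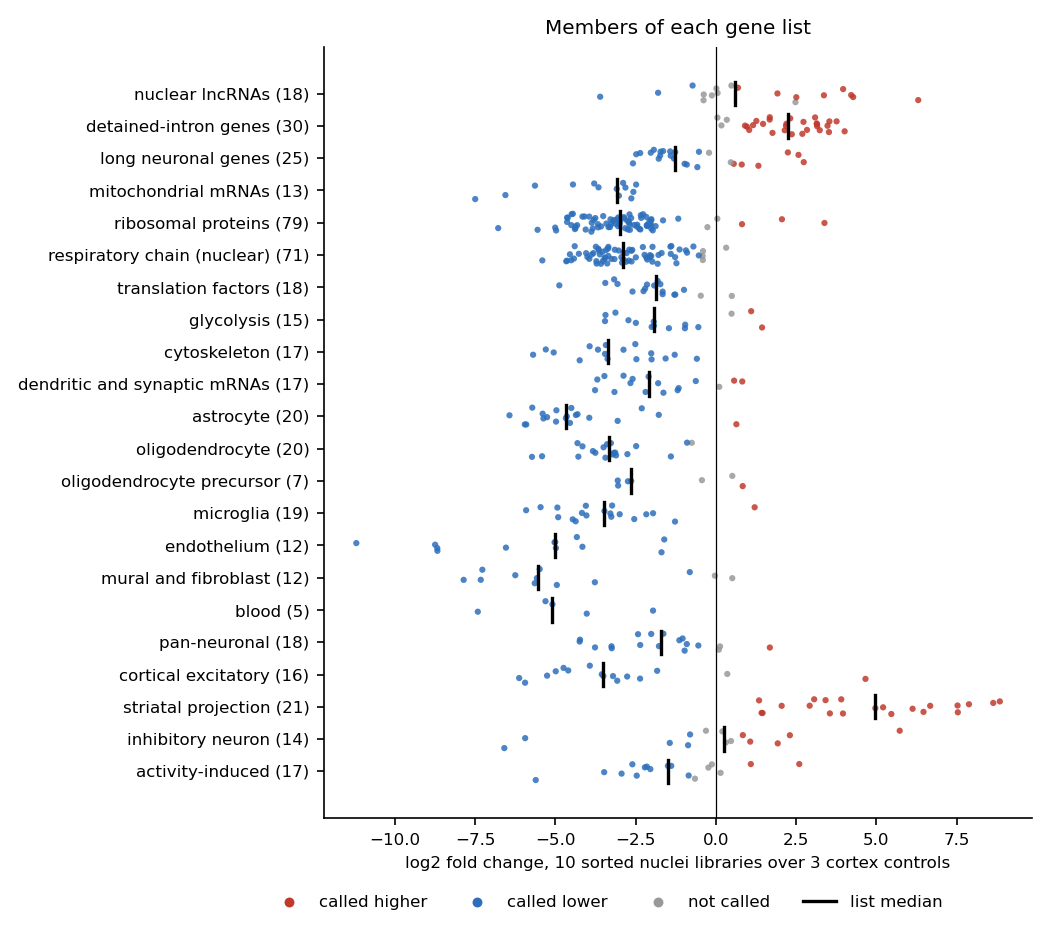
Log2 fold change (10 sorted nuclei libraries over 3 cortex controls) of each tested member of each gene list, with the number of members in brackets. Points are genes, red where called higher, blue where called lower and grey where not called, and bars are list medians. Detained-intron and striatal projection neuron genes lie to the right, and cytoplasmic, glial and vascular lists to the left.

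Cytoplasmic mRNAs were lower as a rule. All 13 mitochondrially encoded mRNAs were lower, with a median log2 fold change of −3.09. mt-Co1, a subunit of cytochrome c oxidase, was at 4420 to 14881 CPM in the nuclei (median 5799) and at 47109, 46054 and 61682 CPM in the cortex, a log2 fold change of −2.82 (SE 0.26, edgeR adjusted p 8.1e-09). The highest nuclei library stayed below the lowest cortex library. The extremes were mt-Nd3 (−7.50) and mt-Co2 (−6.56), and the smallest change was that of mt-Nd5 (−2.49). Mitochondrial genes have near-identical copies in the nuclear genome, so their unique counts are uncertain. Among the nuclei libraries Cas9-GFP lacZ held the highest summed mitochondrial level (40024 CPM, against 11075 to 30074 CPM in the other 9).

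Of 79 tested ribosomal protein genes, 74 were lower and 3 higher (median log2 fold change −3.00). Their summed level was 1252 to 2136 CPM in the nuclei against 14952, 14726 and 13694 CPM in the cortex, a ratio of 0.111. Rpl21 was at 15.8 to 37.5 CPM (median 29.2) against 725, 709 and 682 CPM, a log2 fold change of −4.64 (SE 0.17). Rpl39 (−6.78) and Rpl38 (−5.56) fell most, and Rps24 fell by 2.86 and Rpl4 by 2.38 on the log2 scale. Rpl10a (0.81) and Rps10 (3.38) were among the 3 that were higher. Ribosomal protein genes have many processed pseudogenes, and unique counting can split reads among them. Rps10 had at most 0.884 CPM in any cortex library. With the counts that keep multiply mapped reads, 1 member of the list was higher in place of 3.

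The nuclear-encoded genes of the respiratory chain were lower in 67 of 71 cases and higher in none (median −2.88). Ndufa4 was at 4.68 to 12.7 CPM in the nuclei (median 9.73) against 441, 404 and 366 CPM, and Cox8a fell by 4.66, Cox6c by 3.54, Atp5b by 2.22 and Sdha by 1.41 on the log2 scale. Of 18 translation factors, 16 were lower and none higher (median −1.87), among them Tpt1 (−4.88), Eif1 (−3.45), Eif4a2 (−1.92), Eef1a1 (−1.73) and Eif4g2 (−1.66). All 17 cytoskeletal genes were lower (median −3.38). Tmsb4x, the actin-sequestering thymosin beta 4, was at 24.0 to 45.1 CPM (median 34.9) against 1166, 1181 and 1145 CPM, and the tubulin gene Tuba1b fell by 5.70, stathmin Stmn1 by 5.30, the neurofilament gene Nefm by 3.93 and Actb by 1.28.

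Glycolytic and related cytosolic enzymes were mixed, with 12 of 15 lower and 2 higher (median −1.93). Mdh1 (−3.44) and Pgk1 (−3.45) were lower, whereas Pfkp, a phosphofructokinase, was at 664 to 850 CPM in the nuclei (median 778) against 303, 280 and 263 CPM (log2 fold change 1.44), and Gpi1 rose by 1.10. Both had no overlap between groups. Eno2, the neuronal enolase, was lower by a small margin (−0.55).

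mRNAs that are known to travel into dendrites or to serve synapses were lower in 14 of 17 cases and higher in 2 (median −2.10). Snap25, a SNARE of the synaptic vesicle, was at 402 to 655 CPM in the nuclei (median 466) and at 6308, 6364 and 6823 CPM in the cortex, a log2 fold change of −3.77 (SE 0.11, edgeR adjusted p 5.2e-16). Camk2a, the kinase of dendritic spines, was at 520 to 682 CPM (median 630) against 3613, 3561 and 3886 CPM. In neither gene did the groups overlap. Psd (0.82) and Shank3 (0.57), which both act at the postsynaptic density, were higher, and Kif1a, the motor for synaptic vesicle precursors, differed by 0.10 and was not called.

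Glial genes were lower almost throughout. In bulk samples fewer cells of a type and less RNA per cell cannot be told apart. Of 20 astrocyte genes, 19 were lower and 1 higher (median log2 fold change −4.66), and their summed level was 710 to 1081 CPM in the nuclei against 13774, 13403 and 14907 CPM in the cortex, a ratio of 0.062. Slc1a2, the main glutamate transporter of astrocytes, was at 101 to 206 CPM (median 130) against 5226, 5208 and 6009 CPM, a log2 fold change of −5.26 (SE 0.17, edgeR adjusted p 1.9e-15). Glul, glutamine synthetase, fell by 5.72, the connexin gene Gjb6 by 5.95 and S100b by 6.43. Gfap and Aldh1l1 were above 0 in each nuclei library, at 0.293 to 5.47 and 0.765 to 4.66 CPM. The exception was Slc4a4, a bicarbonate cotransporter, at 310 to 562 CPM against 248, 239 and 317 CPM, whose groups overlapped.

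Oligodendrocyte genes were lower in 19 of 20 cases (median −3.33), with a summed level of 259 to 622 CPM against 5199, 5458 and 5162 CPM. Mobp, a protein of central myelin, was at 7.99 to 17.5 CPM in the nuclei (median 12.2) and at 714, 744 and 637 CPM in the cortex, a log2 fold change of −5.73 (SE 0.16), without overlap. Cldn11, the claudin of myelin, fell by 5.42 and Mbp, myelin basic protein, by 3.44. Sox10 differed by −0.75 and was not called. Of 7 genes of oligodendrocyte precursors, Pdgfra (−3.05), Gpr17 (−3.06) and 2 others were lower, Vcan was higher (0.83), and Bcan (0.51) and Lhfpl3 (−0.44) were not called.

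Microglial genes were lower in 18 of 19 cases (median −3.47), with a summed level of 63.2 to 117 CPM in the nuclei against 626, 634 and 766 CPM. The fractalkine receptor Cx3cr1 was at 0.680 to 6.01 CPM (median 3.66) against 101, 119 and 127 CPM (log2 fold change −4.91). Tyrobp (−5.46) and Fcrls (−5.91) were at 0 in some nuclei libraries, and Csf1r fell by 2.54. The lysosomal gene Cd68 was the exception, at 2.19 to 17.4 CPM against 4.21, 3.93 and 5.55 CPM (1.21), with overlap.

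All 12 endothelial genes were lower. Cldn5, the tight-junction claudin of brain vessels, had no count in any nuclei library and 1117 counts in the 3 cortex libraries, which makes it at least 908-fold lower in the nuclei when a floor of 3 counts over the group is set against the cortex level. Slco1a4, a transporter of brain capillaries, was at 0 to 1.56 CPM (median 0) against 98.3, 96.1 and 137 CPM, and Flt1, a VEGF receptor, fell by 6.54 on the log2 scale. Of 12 mural and fibroblast genes 10 were lower, among them Rgs5 (−7.28), and the 2 others, Tagln and Col1a1, were not called. Slc6a13 had 2 counts over the 10 nuclei libraries, a ratio of cortex to nuclei of 378 with an exact 95% interval from 104 to 3136 that covers counting error only. All 5 genes of red blood cells were lower.

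Genes of striatal projection neurons, the main neurons of the injected region, were higher throughout. All 21 tested genes of striatal projection neurons were higher (median log2 fold change 4.96), with a summed level of 9924 to 14720 CPM against 793, 809 and 757 CPM in the cortex, 16.2 times as much. Drd2, the dopamine D2 receptor of the indirect pathway (chromosome 9, 49340627 to 49408177), was at 313 to 500 CPM in the nuclei (median 409) and at 0.936, 0.757 and 0.883 CPM in the cortex, a log2 fold change of 8.84 (SE 0.22, edgeR adjusted p 1.3e-16). Pde10a, the phosphodiesterase of these neurons, rose by 5.46, the enkephalin gene Penk by 6.13 and the adenylyl cyclase gene Adcy5 by 4.96. Six3, a transcription factor of D2 neurons, had 3 counts in the cortex, and the pooled ratio was 458 with an exact 95% interval from 156 to 2220. Drd1, of the direct pathway, was also higher (5.21).

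Genes of cortical excitatory neurons were lower in 14 of 16 cases (median −3.53). Slc17a7, the vesicular glutamate transporter of the cortex, was at 5.56 to 110 CPM in the nuclei (median 29.6) and at 572, 545 and 634 CPM in the cortex, and Rorb, of layer 4, at 0 to 4.76 CPM (median 1.90) against 160, 168 and 183 CPM. The nuclei libraries thus spread widely in Slc17a7 but remained below the cortex. Otof went the other way, at 154 to 228 CPM against 5.31, 9.00 and 8.51 CPM (4.66). Inhibitory neuron genes split into 5 higher and 5 lower of 14. The vesicular GABA transporter Slc32a1 (1.07), Dlx5 (1.92), Dlx6 (2.30), Lhx6 (0.84) and the acetylcholine-synthesizing enzyme Chat (5.72) were higher, whereas Vip (−6.59), Pvalb (−5.94), Dlx1 (−1.44), Npy (−0.87) and Gad1 (−0.81) were lower. With library size as the only scaling the same list gave 8 higher and 3 lower.

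Most pan-neuronal genes were lower in the sorted neurons. Of 18 tested, 15 were lower and 1 higher (median −1.70), and the summed level was 5722 to 6483 CPM against 19344, 19347 and 20041 CPM. The 15 included Syt1 (−1.77), Map2 (−1.64), Nefl (−4.24) and Stmn2 (−4.23). Rbfox3, which encodes the nuclear antigen NeuN, was at 153 to 230 CPM in the nuclei (median 187) and at 177, 179 and 160 CPM in the cortex (0.13, not called), and Scn2a, a sodium channel gene, differed by 0.09. The labelled cell type, neurons, was met by expressed neuronal genes in every nuclei library. Glial and vascular lists there were at 0.0485 to 0.125 of their cortex level, oligodendrocyte precursors (0.722) being the exception. These low lists alone do not show a sort for neurons. In cortex nuclei sorted without a neuronal marker, described further on, endothelial genes were at 0.141 and 0.0985 times the bulk level. Astrocyte genes were at 0.0989 and 0.0900 times, whereas oligodendrocyte genes (0.291 and 0.173) and microglial genes (0.708 and 0.338) were less low there.

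Of 17 genes induced by neuronal activity, 11 were lower and 2 higher (median −1.50). Bdnf, which cortical neurons make and striatal neurons receive, was at 0 to 3.24 CPM (median 0.776) against 51.4, 49.3 and 51.8 CPM (log2 fold change −5.61), and Homer1 fell by 2.47, Egr3 by 2.04 and Egr1 by 0.85. Npas4 was higher (2.6) at 55.5 to 148 CPM against 6.24, 35.9 and 3.66 CPM. The cortex library 65 was the highest of the 3 in Npas4, Nr4a1, Arc, Fos and Btg2.

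Over all genes with a mean of at least 10 CPM, the 5 with the largest rises were Sfta3-ps, Gm47358, Olfr1393, Gm10535 and Gm49702. Sfta3-ps and Gm47358 had no count in the cortex and were at least 827-fold and at least 529-fold higher by the floor of 3 counts over the group. The 5 largest falls were Ly6a (−9.22), Clec2d (−9.02), Slco1a4 (−8.75), Ly6c1 (−8.68) and Bhlhe22 (−8.55). Ly6a, Slco1a4 and Ly6c1 mark brain endothelium, and Bhlhe22 is a transcription factor of cortical projection neurons.

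By gene type, protein-coding genes were higher in 32.9% and lower in 42.2% of 14287 cases. Of 842 lincRNAs 42.4% were higher and 23.0% lower, and of 739 loci that GENCODE leaves to be experimentally checked (TEC) 63.7% were higher and 11.1% lower. The 74 sense-intronic transcripts, which lie within introns of other genes, were higher in 74.3%, and the 34 small nuclear RNA genes in 70.6%. The libraries were poly-A selected, and which RNA gave the counts on the small nuclear RNA genes was not tested. Among protein-coding genes, the fifth with the shortest exonic length (up to 2.54 kb) was higher in 22.4% and lower in 54.4%, and the fifth with the longest (from 7.64 kb) was higher in 41.5% and lower in 32.9%.

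TE transcripts were measured by subfamily with TEtranscripts, which shares multiply mapped reads among copies. TEs took 10.2% ± 1.15 (SD, n = 10) of all gene and TE counts in the nuclei and 2.09% ± 0.051 (n = 3) in the cortex. The lowest nuclei library, Cas9-GFP lacZ, was at 8.09% and the highest, Stop-Cas9-GFP g13, at 12.6%, against 2.04, 2.08 and 2.14% in the cortex, so the groups were wide apart. The difference of 8.12 percentage points had a two-sided exact permutation p of 0.0035, the smallest that 286 splits of these libraries allow. In uniquely mapped counts the shares were 18.3% ± 1.55 in the nuclei and 5.98% ± 0.126 in the cortex, a ratio of 3.06 against 4.89 in the TEtranscripts counts. The 2 ratios are not like measures. The unique counts cover LINE, SINE and LTR copies alone and were made apart from the gene counts. A read on a copy that overlaps an exon may therefore enter both. In the TEtranscripts counts, SINEs were at 5.56% ± 0.584 against 0.847% ± 0.021, LINEs at 2.30% ± 0.324 against 0.519% ± 0.0239, LTR elements at 1.73% ± 0.212 against 0.571% ± 0.00202 and DNA transposons at 0.447% ± 0.0643 against 0.0801% ± 0.00372. The ratio was thus 6.56 for SINEs, 5.58 for DNA transposons, 4.42 for LINEs and 3.04 for LTR elements, each with the same exact permutation p (Benjamini-Hochberg adjusted over 5 tests 0.0035).

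**Figure D3:**
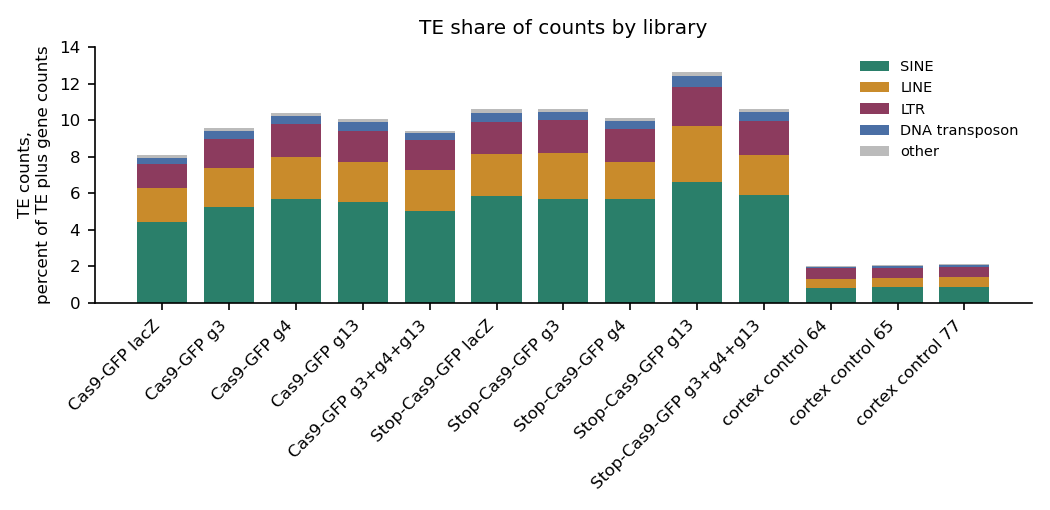
Share of gene plus TE counts taken by TEs in each library, in percent, as stacked bars by TE class for the 10 sorted nuclei and the 3 cortex controls. All nuclei bars (8.09 to 12.6%) stand above all cortex bars (2.04 to 2.14%), with SINEs as the largest class in both.

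Of 935 tested TE subfamilies, 747 (79.9%) were higher and 16 (1.71%) lower in the nuclei relative to gene counts (81.6% in all), with a median log2 fold change of 1.89. The subfamilies thus rose as a body. SINE B3 was at 4680 to 7644 CPM in the nuclei (median 6239) and at 898, 924 and 1029 CPM in the cortex, a log2 fold change of 2.68 (SE 0.13, edgeR adjusted p 1.5e-22). ID_B1 (2.25), RSINE1 (2.84), B4A (3.02) and B3A (2.85), the other 4 subfamilies with the highest mean level, are SINEs too. All 16 Alu-type (B1) subfamilies were higher. Of 129 L1 subfamilies 120 were higher and 1 lower (median 2.20), and of 257 of the ERVK family, to which the intracisternal A particles belong, 192 were higher and 9 lower (median 1.66).

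Among subfamilies with a mean of at least 10 CPM and groups that did not overlap, the largest rises were those of LTR80A (6.92), LTR16A2 (5.92), the DNA transposons Charlie16a (5.52) and MER53 (4.82), and IAPEY3-int (4.55). LTR16A2, for example, was at 33.3 to 64.9 CPM against 0.930, 0.645 and 0.713 CPM. IAPEY3-int split with the Y-linked counts. It was at 88.6 to 119 CPM in the 5 nuclei libraries with 5944 to 8428 such counts and at 30.5 to 53.6 CPM in the other 5. The cortex libraries, with 0 such counts, were at 2.30, 2.79 and 4.28 CPM. The part of sex in its rise was not tested. The 16 that were lower were mostly LTR elements (13), with RMER17D (−2.41) and RLTR19-int (−1.94) among them, and RLTR19-int stood at 32.5 to 56.0 CPM against 168, 174 and 166 CPM. When the TE counts themselves set the scale, the median was 0.04, 231 subfamilies were higher and 227 lower, and medians by class were 0.56 for SINEs, 0.42 for LINEs, 0.43 for DNA transposons and −0.16 for LTR elements.

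The uniquely mapped counts of single TE copies showed where these reads lay. Copies of the 3 classes LINE, SINE and LTR were sorted by the GENCODE annotation of GRCm38 into those that overlap an exon, those within an intron, those up to 10 kb downstream of a gene and those elsewhere, with the strand left out. Intronic copies took 59.9% ± 1.84 of the unique TE counts in the nuclei and 20.9% ± 1.39 in the cortex, and exonic copies 28.7% ± 1.89 and 63.0% ± 1.25. Per 100 gene counts, intronic copies had 13.5 ± 1.76 counts in the nuclei (10.3 to 16.9) and 1.24, 1.29 and 1.46 in the cortex, a ratio of 10.1. For exonic copies the same ratio was 1.59 (6.38 ± 0.318 against 4.00 ± 0.00977), for copies downstream 1.96 and for copies outside genes 3.99. No range of nuclei libraries overlapped that of the cortex in any of the 4 positions per 100 gene counts.

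**Figure D4:**
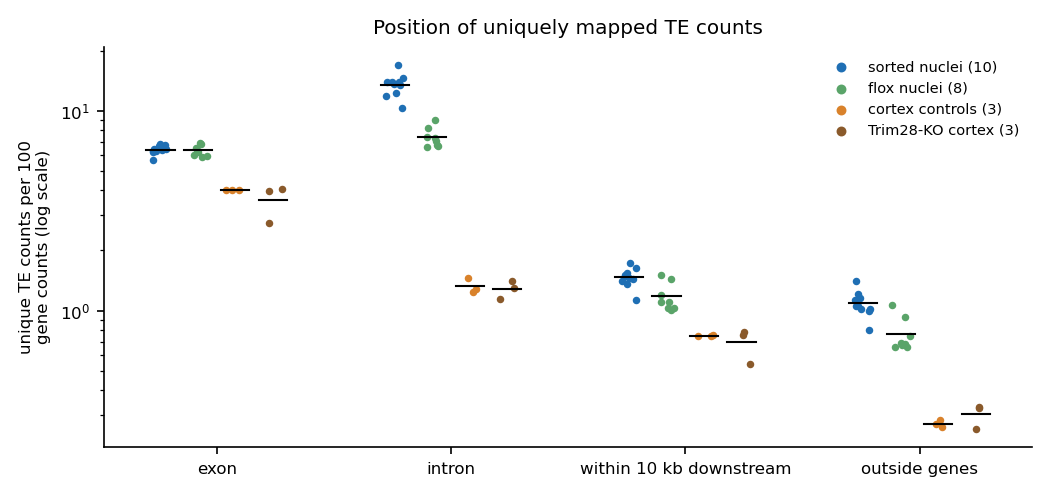
Uniquely mapped LINE, SINE and LTR counts per 100 gene counts (log axis) by position of the copy, in the 10 sorted nuclei, the 3 cortex controls, and the 8 flox nuclei and 3 Trim28-KO cortex libraries described further on. Points are libraries and bars are group means, and intronic copies have 10.3 to 16.9 counts in the sorted nuclei and 1.24 to 1.46 in the cortex controls.

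The intronic counts were spread over many genes, with 3.01% of them in the 10 leading host genes, 11.2% in 100 and 40.1% in 1000. The leading host was Rgs9, which encodes a regulator of G-protein signalling in striatal neurons, with 1482 intronic TE counts (in CPM of gene counts) in the nuclei (951 to 1998) and 2.81 in the cortex. Adcy5 had 328 against 0.634 and Hpca, a calcium sensor, 266 against 2.84, whereas Prkcb, a protein kinase C gene, had 404 against 178. Sptbn4, a spectrin of the axon initial segment, had 286 against 11.6 and Grin1, the obligatory NMDA receptor subunit, 186 against 3.22. The exonic counts of Rgs9 itself were 825 to 1184 CPM in the nuclei and 5.31, 4.92 and 5.74 CPM in the cortex.

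To show what such TE reads are made of, the 4 intronic copies of up to 200 bases with the most nuclear counts are printed, 1 per host gene, chosen after their values were seen. The reference sequence (GRCm38) runs 5′ to 3′ on the strand of the copy, with the copy in capitals and 20 bases of intron in lower case on each side. All 4 copies lie on the strand of their host gene.
MIR in Rgs9, chr11:109230967-109231024, minus strand: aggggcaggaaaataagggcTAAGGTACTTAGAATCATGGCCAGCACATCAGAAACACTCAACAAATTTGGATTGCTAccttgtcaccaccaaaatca
ID_B1 in Sptbn4, chr7:27365010-27365139, minus strand: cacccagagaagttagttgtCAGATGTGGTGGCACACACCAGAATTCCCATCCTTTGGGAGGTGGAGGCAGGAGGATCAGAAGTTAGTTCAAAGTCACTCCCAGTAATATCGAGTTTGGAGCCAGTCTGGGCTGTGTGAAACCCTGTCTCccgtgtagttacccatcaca
ID_B1 in Pde2a, chr7:101505359-101505490, plus strand: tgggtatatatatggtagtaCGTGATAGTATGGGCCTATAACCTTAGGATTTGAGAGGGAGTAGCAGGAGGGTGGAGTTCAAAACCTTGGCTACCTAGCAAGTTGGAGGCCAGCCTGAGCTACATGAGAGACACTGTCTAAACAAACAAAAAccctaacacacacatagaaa
MIRc in Prkcb, chr7:122632491-122632598, plus strand: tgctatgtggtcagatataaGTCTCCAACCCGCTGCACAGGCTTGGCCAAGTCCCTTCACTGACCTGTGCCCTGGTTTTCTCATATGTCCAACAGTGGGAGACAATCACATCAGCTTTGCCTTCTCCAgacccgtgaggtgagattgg
The Rgs9 copy had 263 unique counts (in CPM of gene counts) in the nuclei and 0.204 in the cortex, and the Sptbn4 copy 170 and 8.78. The copy in Pde2a, where the gene model Gm45837 overlaps, had 107 and 0.452. The copy in Prkcb had 96.9 and 48.0, so that it was well counted in both tissues.

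A second set of libraries, none of them used above, allowed the same comparison. In these, adult Trim28-flox mice, heterozygous or homozygous for the floxed allele, received AAV with Cre and AAV with a nuclear GFP, the Synapsin promoter being named for them, and nuclei were sorted by GFP 2 months later (8 libraries, 4 labelled control and 4 labelled Trim28-KO) and were set against the cortex of 3 Emx1-Cre animals with both Trim28 alleles floxed. Trim28 went against the labels of these nuclei, at 117 to 132 CPM in the libraries labelled Trim28-KO and at 23.4 to 28.7 CPM in those labelled control, so all 8 were used as 1 group. The cortex library 76 stood apart, since the ribosomal RNA derived genes Gm42418 and CT010467.1 took 14.1 and 8.86% of its counts. Of 18609 genes, 7879 (42.3%) were higher and 6939 (37.3%) lower in the flox nuclei (79.6% in all), with a median of 0.21, and without library 76 the counts were 7769 and 6967.

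The lists moved in much the same way there. Of the detained-intron genes 28 of 30 were higher and none lower, of the nuclear long non-coding RNAs 10 were higher and 4 lower, and of the long neuronal genes 4 were higher and 20 lower. All 13 mitochondrial mRNAs, 69 of 79 ribosomal protein genes, 19 of 20 astrocyte genes and 20 of 20 oligodendrocyte genes were lower, and 20 of 21 striatal genes were higher. Meg3 rose by 5.86, Snhg11 by 4.42 and Clk1 by 4.11 on the log2 scale, and Slc1a2 fell by 7.41 and Snap25 by 3.35. Of 17676 genes tested in both comparisons, 5579 were higher in both, which is 88.4% of those higher in the first and 75.6% of those higher in the second. Another 5714 were lower in both (83.8 and 84.6%), and 254 were called in opposite directions. TEs took 6.36 to 9.15% of counts in the flox nuclei and 1.85 to 2.37% in the Trim28-KO cortex. Intronic copies had 7.37 ± 0.824 counts per 100 gene counts there against 1.28 ± 0.137.

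Single nuclei of the cortex itself, from 2 of the 3 control animals, were set beside the bulk cortex of the same animals. They were sorted without a neuronal marker and held 3496 and 3130 barcodes (none shared between these 2). The median was 7753 and 8390 unique molecular identifiers (UMIs) per barcode. Introns were counted, so their levels are not on the scale of the bulk libraries. The single-nuclei CPM also carried no TMM factor, whereas the bulk CPM did (0.760 and 0.769 for cortex libraries 64 and 65). Factors under 1 raise the bulk CPM and so lower each ratio given here. With 1 library per animal these values are given without a test. The summed level of the detained-intron genes was 1.11 and 1.02 times that of the bulk cortex (animals 64 and 65), where the sorted nuclei libraries had 3.41 to 4.55 times the cortex mean. The long neuronal genes were at 11.3 and 12.3 times, with 25 of 25 members higher, against 0.453 to 0.637 times in the sorted nuclei. Nuclear long non-coding RNAs were at 59.4 and 42.8 times over the 13 members measured in both, Xist among them. Over the same members the sorted nuclei had 7.23 to 13.0 times the cortex mean. In the single nuclei 12 and 11 members were higher. Their sum was 135728 CPM of UMIs in animal 64, where Snhg11 and Meg3 held 5968 and 7443 CPM, so most of it lay in other members.

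Cytoplasmic lists were low in the single nuclei too, at 0.0054 and 0.0089 times the bulk level for mitochondrial mRNAs and 0.0795 and 0.0667 times for ribosomal proteins. The lists that mark a region were not. Cortical excitatory genes were at 0.751 and 0.730 times and striatal genes at 1.28 and 1.11 times, where the sorted nuclei had 0.162 to 0.226 and 12.6 to 18.7 times the cortex mean. Meg3 was at 7443 and 7554 CPM of UMIs against 65.2 and 53.1 CPM in the bulk cortex, and Snhg11 at 5968 and 4876 CPM against 696 and 644 CPM. Astrocyte genes were at 0.0989 and 0.0900 times the bulk level and microglial genes at 0.708 and 0.338 times.

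**Figure D5:**
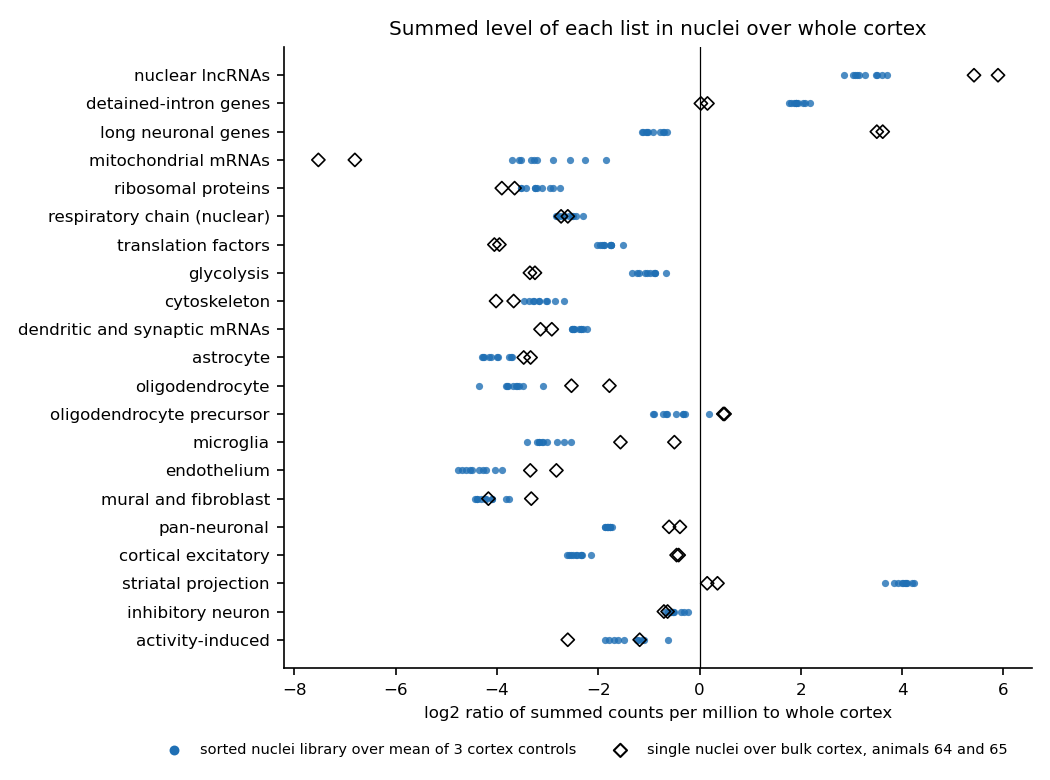
Log2 ratio of the summed CPM of each gene list to whole cortex. Blue points are the 10 sorted nuclei libraries over the mean of the 3 cortex controls, and open diamonds are single nuclei of cortex animals 64 and 65 over the bulk cortex of the same animal. The blood list is not drawn since a nuclei library was at 0. The single-nuclei CPM carry no TMM factor. Detained-intron and striatal lists lie higher in the sorted nuclei than in the single nuclei, and long neuronal genes lie higher in the single nuclei.

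Between the 5 Cas9-GFP and the 5 Stop-Cas9-GFP libraries, 126 of 16213 genes were higher (0.777%) and 125 lower (0.771%) in the Cas9-GFP libraries, 1.55% in all, and without the library Stop-Cas9-GFP g13 only 23 and 31, whereas DESeq2 called 277 and 266. Of the listed genes, 7 ribosomal protein genes were called between the lines, and Rpl21 was higher in the Cas9-GFP libraries by 0.61 on the log2 scale (edgeR adjusted p 0.033), as was Gpi1 by 0.58. The TE share was 9.50% ± 0.88 in the Cas9-GFP and 10.9% ± 0.977 in the Stop-Cas9-GFP libraries (n = 5 each, two-sided exact permutation p 0.0159, adjusted over 6 shares 0.0476), a comparison added after the data were seen. The LINE share, at 2.17% ± 0.185 and 2.42% ± 0.404, did not pass (exact permutation p 0.262, adjusted 0.314). The share of mitochondrial transcripts was 2.49% ± 1.17 and 1.82% ± 0.798 in the same libraries (exact permutation p 0.317), and its part in the TE difference was not tested.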

How the data were processed

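Poly-A RNA libraries of sorted nuclei and of cortex were compared. Per the study's methods, the authors aligned reads with STAR 2.6.0 to GRCm38.p6 and deposited raw counts of uniquely mapped reads over exons, by strand, from featureCounts (Subread 1.6.3, GENCODE), counts per TE subfamily with multiply mapped reads (TEtranscripts), and unique counts per LINE, SINE or LTR copy. Single-nuclei UMI counts were deposited from Cell Ranger 3.0 with introns included. Of 55298 gene IDs, 54409 matched a symbol, and 6 columns of the TE tables that matched no sample were not used.

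Gene and TE counts were fitted here with edgeR 4.0.16 in R 4.3.3 (quasi-likelihood test, TMM factors, filterByExpr, Benjamini-Hochberg adjustment). A call needed an adjusted p under 0.05 and an absolute log2 fold change above 0.5. TE subfamilies were scaled by the gene library sizes and factors. TE shares were compared with two-sided exact permutation tests over libraries (SciPy 1.17.1), and TE copies were placed with bedtools 2.31.1 on the GENCODE annotation of GRCm38. Copies on both strands of genes received like counts, so the strand was left out. The test was checked on simulated counts with a small set of genes changed evenly up and down. In the data 73.6% of genes were called, so the check did not cover the scaling under so broad a change.

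The members and gene lists were chosen with earlier results of these data known. Genes named by rule were Trim28, in each list the 3 with the highest mean CPM and the 2 called genes with the largest change without overlap, and over all genes the 5 largest changes in each direction at a mean of at least 10 CPM without overlap (TE subfamilies likewise, with the 5 of highest mean). Alternatives were DESeq2 1.42.0, other scalings and filters, subsets of libraries and leaving out each library (in the flox comparison the cortex libraries alone). As 1 library stands for each line and guide, p-values measure the spread between these libraries. Intervals and floors cover counting error only. Some genes of these lists are not reported here by name.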

Additional observations from a re-analysis of the deposited data

Results flagged for a closer look

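Among the 10 sorted nuclei libraries, 1 library lay far from the other 9 (Dixon's test at the 95% level) in 15 of 150 values examined. For independent, normally spread values chance gives about 1 in 20. These values are not independent, since list sums were examined beside their members, and some rest on a few counts. The 15 cannot therefore be set against that rate. The library Cas9-GFP lacZ was the far one in 5 of them. Its summed translation factors were at 2677 CPM (1876 to 2292 CPM in the other 9), Atp5b at 341 CPM (181 to 258), Cox8a at 10.1 CPM (3.71 to 6.97), Snap25 at 655 CPM (402 to 496) and Hbb-bt at 0.540 CPM (0 to 0.161). The same library had the highest mitochondrial share (4.39%) and the lowest TE share (8.09%) of the 10.

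Cas9-GFP g3+g4+g13 stood apart in the summed activity-induced genes, at 882 CPM against 375 to 637 CPM, in Tpt1 at 31.0 CPM (13.4 to 21.3), in Clec2d at 0.767 CPM (0 to 0.265) and in Ly6c1 at 0.837 CPM (0 to 0.0883). Cas9-GFP g13 did so in the summed oligodendrocyte precursor genes at 259 CPM (121 to 186) and in Pvalb, a marker of a class of interneurons, at 8.38 CPM (0.390 to 2.45). The vascular genes Slco1a4, at 1.56 CPM in Stop-Cas9-GFP g13 (0 to 0.790), Slc6a13, at 0.209 CPM in Stop-Cas9-GFP lacZ (0 in the others), and Acta2, at 0.243 CPM in Cas9-GFP g4 (0 to 0.104), rested on a few counts, as did Bhlhe22 at 1.19 CPM in Stop-Cas9-GFP g3 (0 to 0.553). In each of these the far library still lay on the same side of the cortex as the other 9, except for the summed precursor genes, where it passed all 3 cortex libraries.

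Between the lines, Cas9-GFP minus Stop-Cas9-GFP (5 libraries each), named genes that differed by edgeR's quasi-likelihood test were Bcan (0.99 on the log2 scale, adjusted p 0.0062), Csf1r (0.97, adjusted p 0.048), Glul (0.61, adjusted p 0.022), Rpl21 (0.61, adjusted p 0.033), Gpi1 (0.58, adjusted p 0.0088) and Sfta3-ps (0.51, adjusted p 0.037). All 6 were higher in the Cas9-GFP libraries. Over all 16213 genes the calls were near even, with 126 higher and 125 lower (1.55% in all). Without Stop-Cas9-GFP g13 they were 23 and 31. The TE share differed by −1.41 percentage points, SINEs by −0.793, LTR elements by −0.263 and DNA transposons by −0.0809 (exact permutation tests, each adjusted p 0.0476 over 6 shares), so that these shares were higher in the Stop-Cas9-GFP libraries. The LINE share differed by −0.248 points and did not pass (exact permutation p 0.262, adjusted 0.314).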

How the results depend on the processing

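Of 2982 values of 127 named genes and TE subfamilies under the alternatives, 2947 kept their direction and their side of the threshold, 20 lost a call, 10 gained one and 5 turned. Those that turned were Ptprd with upper quartile factors (0.00715) and with library size alone (0.30), Lhfpl3 (0.0891) and MTB_Mm (0.00552) with library size alone, and Bcan with the Stop-Cas9-GFP libraries alone (−0.0432). TE subfamilies scaled by the TE counts gave 231 higher and 227 lower. The lower ones numbered 10 with gene library sizes alone, 25 with the lacZ libraries alone and 25 with the Cas9-GFP libraries alone. The TE share differed by 12.3 points in uniquely mapped counts, which cover LINE, SINE and LTR copies alone. With the lacZ libraries alone it differed by 7.25 points at an exact permutation p of 0.1, the smallest that 2 against 3 libraries allow. Leaving out 1 library gave 6146 to 6794 genes higher and 6622 to 6918 lower between nuclei and cortex, 693 to 766 subfamilies higher and 13 to 20 lower, and TE share differences of 7.85 to 8.36 points. In the flox comparison the 3 cortex libraries alone were left out in turn, with 7674 to 7769 genes higher and 6793 to 6967 lower.

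Between the lines DESeq2 called 277 higher and 266 lower, and leaving out 1 library gave 23 to 191 higher and 31 to 184 lower. The counts were 51 and 62 without Cas9-GFP lacZ, 75 and 74 without Cas9-GFP g3, 66 and 78 without Cas9-GFP g3+g4+g13, 39 and 57 without Stop-Cas9-GFP g4, 23 and 31 without Stop-Cas9-GFP g13, and 191 and 145 without Stop-Cas9-GFP g3+g4+g13. The cause was not tested. With the guide as a block that pairs the lines, 115 were higher and 117 lower. Libraries of the same guide correlated by −0.067 to 0.111 in their deviations from the line means over all genes. With 1 library per guide and line, this does not tell whether a guide changed single genes. No paired analysis was possible between nuclei and cortex because the groups share no replicate number that pairs them.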

Other observations

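Xist and Y-linked counts split the 10 nuclei libraries evenly. In 5 of them Xist was at 6462 to 11310 CPM (without TMM factors) with at most 1 count on Y-linked genes, and in the other 5 it was at 1.76 to 6.17 with 5944 to 8428 Y-linked counts. The 3 cortex controls had 453 to 742 and no Y-linked count. The summed level of the nuclear long non-coding RNAs with Xist was 20338 to 35743 CPM in the nuclei, and its range without Xist was 20336 to 25656 CPM.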
